A study of Nicotiana benthamiana with 12 samples.

Results

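In whole seedlings of Nicotiana benthamiana, 117 of 45796 genes gave reads in every wild-type (WT) library and almost none in a line labelled pent1. These genes were chosen by the readout itself: a mean of at least 0.5 counts per 1000000 library counts (CPM) in WT under mock and in WT under abscisic acid (ABA), and at most 6 counts summed over the 6 pent1 libraries. A total of 32401 genes met the WT condition, so the nearly silent genes made up 0.361% of the genes that could have qualified. The low pent1 values and the WT minimum are therefore properties of the choice and carry no test here. The values of the genes next to a member were not used to choose that member. A gene next to a member that met the rule is itself a member, so neighbours are by definition genes that missed the rule. The ABA contrast within WT was not a criterion, but the minimum in both WT groups bounds it, since a gene near 0 under one of the treatments could not qualify.

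Libraries came from seedlings of the LAB strain, moved from plates into liquid MS medium 10 days after germination and kept there for 10 more days under long days. Both WT and pent1 seedlings then received fresh medium with 0.1% DMSO, the solvent alone (mock), or with 10 µM ABA, and were collected after 3 h. Each of the 4 groups (WT mock, WT ABA, pent1 mock and pent1 ABA) held 3 libraries described as independent biological replicates. The gene altered in pent1, the number of lines behind that name and the control line from which it derives are not given in the labels or tables used, and WT and pent1 stood in separate tables, so genotype and differences of growth, sequencing or counting between the tables cannot be told apart. RNA was taken from whole seedlings, where fewer cells of a type and less RNA per cell cannot be told apart.

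ABA is the plant hormone of drought, salt stress and seed dormancy. It binds soluble receptors of the PYR/PYL/RCAR family, which then inhibit PP2C phosphatases and so release SnRK2 kinases, and these phosphorylate transcription factors that alter the transcript levels of many genes within hours. N. benthamiana is an allotetraploid, with many genes present as pairs of near-identical copies from its ancestors, so reads of such copies are hard to assign, and a low count for an ID need not mean that both copies are low. The tables give gene IDs with no names or products, and so the genes are called by ID and no role is stated for any of them.

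The WT libraries held 18199288 to 18758918 counts, with counts in 38308 to 38512 genes. Those of pent1 held 19371555 to 19678708 counts, with counts in 37692 to 37937 genes, so the pent1 libraries were larger and showed fewer genes, without overlap in either measure.

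Together the 117 genes held 15785 counts in the 6 WT libraries and 286 counts in the 6 pent1 libraries. Their summed level was 126.9, 139.4 and 113.2 CPM in WT mock replicates 1, 2 and 3, and 145.9, 125.1 and 206.4 CPM in WT ABA. In pent1 it was 1.12, 3.41 and 0.92 CPM under mock and 2.08, 4.17 and 2.94 CPM under ABA. Group means were thus 126.5 ± 13.1 and 159.1 ± 42.3 CPM in WT and 1.82 ± 1.38 and 3.07 ± 1.05 CPM in pent1 (SD, n = 3), and one WT library, ABA replicate 3, stood above the other 5. All 117 genes had counts in all 6 WT libraries, with 3 as the smallest count, and for each of them the lowest WT count exceeded the highest pent1 count, which was never more than 4.

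**Figure D1:**
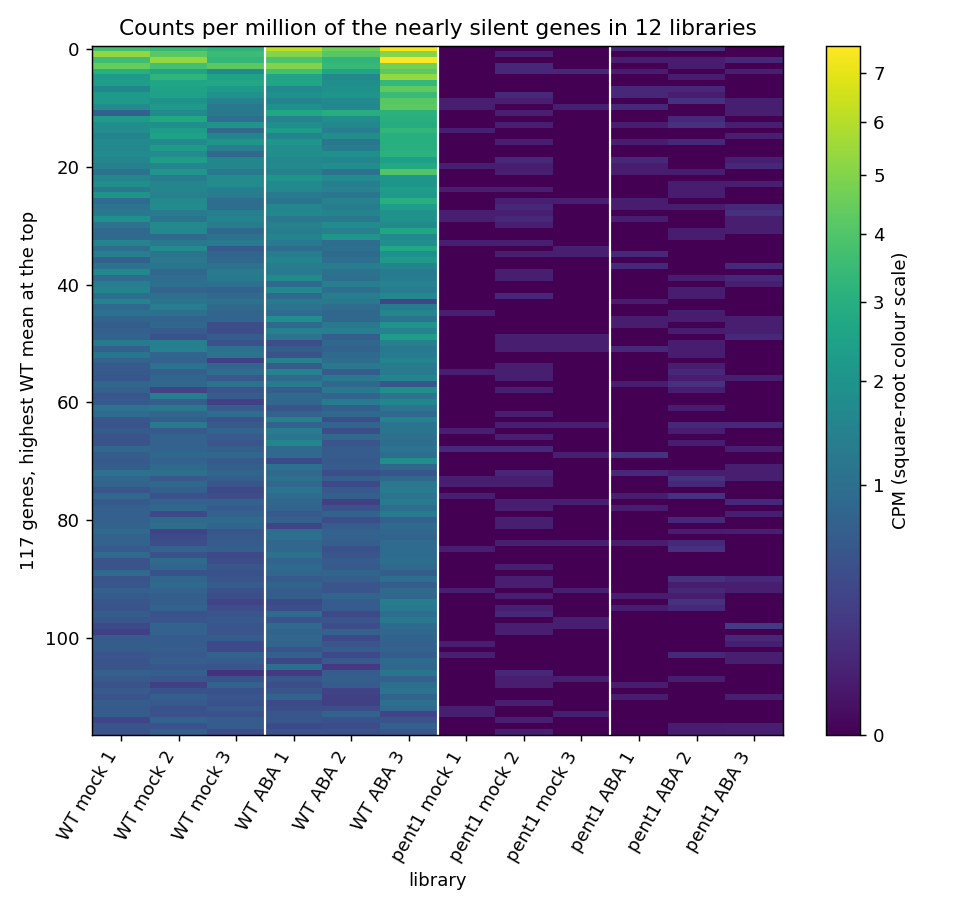
Colours show CPM on a square-root scale for the 117 nearly silent genes (rows, ordered by mean level over the 6 WT libraries) in 12 libraries (columns), with white lines between the 4 groups. The 6 pent1 columns stay near 0 throughout, and the column of WT ABA replicate 3, with a summed level of 206.4 CPM, is brighter than the other WT columns in most rows.

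At their WT level the genes would have given 61.4 to 554 counts each over the 6 pent1 libraries (median 104). No count at all was found in pent1 for 19 genes, 1 count for 26, 2 for 22, 3 for 14, 4 for 15, 5 for 12 and 6 for 9. For the 19 genes without a count, the WT level was at least 22.9-fold to at least 101-fold that of pent1, with the pent1 sum set to a floor of 3 counts over its 6 libraries. The few pent1 counts were spread unevenly over the libraries: mock replicates 1, 2 and 3 held 22, 66 and 18, and ABA replicates held 41, 82 and 57. The 2 libraries numbered 2 thus held 51.7% of these counts, and only 13 genes had counts in more than 3 of the pent1 libraries.

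The genes were weakly expressed in WT. Their mean level over the 6 WT libraries ran from 0.524 to 4.73 CPM with a median of 0.887 CPM, against a median of 10.8 CPM over all 32401 genes at the WT minimum. These are counts per gene and not per length, so the order of levels among genes also reflects transcript length. From 0.5 to under 1 CPM, 67 of 1468 genes were members (4.56%). From 1 to under 2 CPM it was 35 of 2712 (1.29%), and from 2 to under 5 CPM 15 of 5360 (0.28%), while none of the 22861 genes at 5 CPM or more qualified. A fixed limit of 6 counts is harder to meet at higher WT levels, which lowers the share in the upper bands. A ratio free of that limit fell with level as well: 3.95% of genes from 0.5 to under 1 CPM were at least 16-fold lower in pent1 by summed counts, 0.672% from 2 to under 5 CPM, and 0.0886% at 30 CPM or more.

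**Figure D2:**
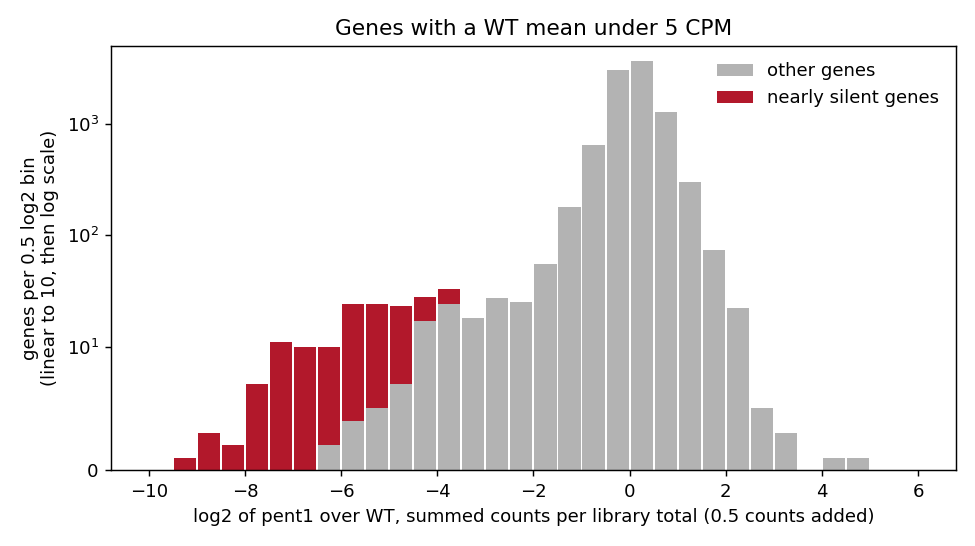
Bars count genes at the WT minimum with a WT mean under 5 CPM by the log2 ratio of pent1 to WT (summed counts per library total, 0.5 counts added), with the 117 nearly silent genes in red. The main body of genes lies around 0, and the members lie in a left tail. Genes near 0 in WT are left out by the WT minimum, so the right side cannot hold their mirror image.

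The reverse rule, with the genotypes exchanged, found 4 of 32466 genes (0.0123%). NbL03g06270 had 38, 34 and 19 counts in pent1 mock and 10, 34 and 83 in pent1 ABA, with 1 count in all of WT. NbL03g13410 had 95 counts in pent1 and 5 in WT, NbL08g16530 had 89 and 1, and NbL03g17780, named after its values were seen, had 68 and 5. Near absence was in this sense one-sided, with 117 genes low in pent1 and 4 low in WT under the same limits.

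The rule has edges, and values on both sides of them are close. A group of 9 members had 6 pent1 counts and WT means of 0.651 to 2.99 CPM, and 16 genes just outside had 7 pent1 counts and WT means of 0.597 to 5.23 CPM. The highest of those outside, NbL17g07070, had 83, 99 and 51 counts under WT mock, 72, 74 and 198 under WT ABA, and 7 in pent1. NbL01g10990 and NbL19g19910 also had 7 pent1 counts, beside 538 and 467 counts in WT. On the WT side, 14 members had a lower group mean from 0.5 to 0.55 CPM, and 23 genes with at most 6 pent1 counts missed the minimum with a lower group mean from 0.45 to under 0.5 CPM. The lowest members were NbL17g00920 and NbL18g10760, both at 0.524 CPM over the 6 WT libraries, and NbL19g03770 at 0.541 CPM.

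Of the 8 genes with the highest WT means, NbL04g06960 led with 3.68, 3.39 and 3.15 CPM in WT mock and 6.14, 4.69 and 7.30 CPM in WT ABA. It had no count in pent1 mock and 2, 3 and 0 counts in pent1 ABA. Its 3 ABA libraries lay above its 3 mock libraries in WT. NbL06g21130 stood at 5.33, 4.2 and 3.58 CPM in WT mock and 5.04, 4.16 and 5.05 CPM in WT ABA, with 1 count in pent1, in mock replicate 2. NbL13g24800 was as even, at 4.40, 3.71 and 4.22 CPM and then 4.99, 3.41 and 4.72 CPM, with 3 counts in pent1. The WT groups of both genes overlapped.

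NbL18g13140 had a different shape over the same libraries, at 3.63, 5.38 and 3.31 CPM in WT mock and 3.89, 3.25 and 7.58 CPM in WT ABA, with 4 counts in pent1. NbL16g27890 followed it closely, at 2.25, 3.23 and 2.56 CPM and then 2.58, 1.71 and 5.38 CPM, with 1 count in pent1. NbL04g13270 stood at 1.59, 2.53 and 2.24 CPM and then 1.70, 1.92 and 4.28 CPM, with 4 counts in pent1. In all 3 genes the highest library was WT ABA replicate 3, and the other ABA libraries lay within or below the range of the mock libraries. NbL17g24700, at 2.44 ± 0.668 CPM in WT mock and 3.54 ± 0.797 CPM in WT ABA (SD, n = 3), had 6 counts in pent1. NbL13g20530, the highest gene with no count in pent1, stood at 2.36, 2.64 and 2.67 CPM in WT mock and 2.63, 1.81 and 3.35 CPM in WT ABA, at least 101-fold above the floor in pent1.

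That shape was widespread among the nearly silent genes. WT ABA replicate 3 was the highest of the 6 WT libraries for 80 of the 117 genes (68.4%), against 12.6% of the 9025 other genes at or below the highest member level and 10.9% of all other genes at the WT minimum. The next most frequent were WT ABA replicate 1 with 17 genes and WT mock replicate 2 with 10. The level in ABA replicate 3 divided by the mean of ABA replicates 1 and 2 had a median of 1.48 over the members, with quartiles of 1.14 and 1.81, and a median of 0.958 over the other genes of that level. It exceeded 1 for 104 members and was at least 2 for 19 members (16.2%), against 0.687% of the other genes of that level. The replicates of one treatment have no order and the genes share the library, so these shares are a description of 1 library and have no test.

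The extremes of this ratio were NbL12g02950 and NbL16g22190, named after their values were seen. NbL12g02950 had 7, 11 and 34 counts in the WT ABA libraries beside 11, 14 and 11 in mock, a ratio of 3.85. NbL16g22190 had 23, 23 and 6 counts beside 28, 21 and 20, a ratio of 0.265. The total of WT ABA replicate 3 (18217443 counts) and its number of genes with a count (38483) lay within the range of the other WT libraries, but its TMM scaling factor was 0.969, against 0.993 to 1.01 for the other 5. Over genes with at least 20 counts in a pair of libraries, the chi-square per degree of freedom was 3.96 and 4.61 between it and ABA replicates 1 and 2, against 2.03 between those 2 and 2.63 to 3.89 between mock libraries. Between pent1 libraries of the same group it was higher still, at 6.64 to 16.5. The part of the differences between WT libraries in the profile of the members was not tested.

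**Figure D3:**
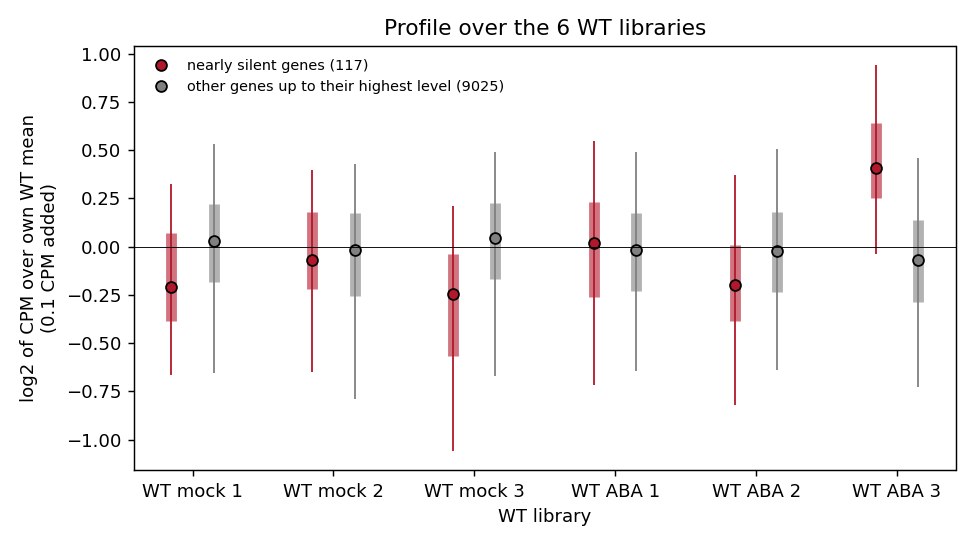
Points are medians, thick bars quartiles and thin lines the 5th to 95th percentile of log2 CPM relative to each gene's own WT mean (0.1 CPM added) in the 6 WT libraries, for the 117 nearly silent genes and for 9025 other genes at or below their highest level. Members are shifted up in WT ABA replicate 3, with a median of 0.41, while the other genes stay near 0 in all 6 libraries.

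The same profile was seen in genes that were lower in pent1 without being members. Among other genes at the WT minimum and at least 16-fold lower in pent1, 41 of 62 were highest in WT ABA replicate 3 (66.1%), with a median ratio of that library to the other ABA libraries of 1.38. These genes had a median WT level of 4.68 CPM, well above the members. Of genes 8 to 16-fold lower, 33 of 61 were highest in that library (54.1%), of genes 4 to 8-fold lower 24 of 82 (29.3%), and of genes 2 to 4-fold lower 94 of 556 (16.9%). Of 30772 genes within 2-fold it was 10.3%, and of 751 genes over 2-fold higher in pent1 it was 22.8%. Among the classes lower in pent1 the share thus rose with the size of the deficit. The genes share the same 6 WT libraries and are not independent replicates. The summed WT counts that set the classes include WT ABA replicate 3, so a high value there also enlarges the deficit. How much of the rise in the share comes from this was not tested.

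ABA was set against mock in WT to ask whether the nearly silent genes respond to the hormone where they are expressed. Of the 117 genes, 114 passed the filter on low counts, and of these 9 rose and 0 fell at a Benjamini-Hochberg adjusted p under 0.05 over all 33170 genes tested (edgeR quasi-likelihood). The background was 18.6% higher and 17.5% lower, over genes that were not held to the WT minimum. The members' 7.89% higher was below this, but calls are rarer at low levels. Among genes that met the WT minimum, 4 of 64 members rose from 0.5 to under 1 CPM against 3.44% of other genes, 3 of 35 from 1 to under 2 CPM (8.57%) against 9.11%, and 2 of 15 from 2 to under 5 CPM (13.3%) against 13.0%. Shares of other genes that fell were 4.02%, 10.3% and 13.7% in these bands. At an unadjusted p under 0.05, 19 members were higher and 0 lower, and DESeq2 called 6 higher and 0 lower. The shares of all tested genes under these criteria are not given here, so these counts have no background.

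ABA was above mock in the fitted mean for 95 of the 114 genes, with a median log2 fold change of 0.33 against -0.02 over all tested genes and a range of -0.62 to 1.27. WT ABA replicate 3 moved with this: without it the median was 0.05, with 64 of 115 genes above 0, and 4 genes rose. Without WT mock replicate 3 the median was 0.21, and again 4 rose, while without WT ABA replicate 2 it was 17. The shares of all tested genes that rose in these smaller fits are not given here. For the separation of the WT groups, the background covers tested genes of all levels and was not matched to the low level of the members. All 3 ABA libraries lay above all 3 mock libraries for 14 of the 117 members, against a background of 21.6%, and below them for 1 member, NbL10g17670, against 25%. Its log2 fold change was -0.44 (SE 0.33, edgeR quasi-likelihood adjusted p = 0.327), and it was named after its values were seen.

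The gene with the lowest adjusted p, NbL19g20990, stood at 0.714, 1.72 and 1.23 CPM in WT mock and 2.69, 2.93 and 3.13 CPM in WT ABA. Its groups did not overlap, and its log2 fold change was 1.26 (SE 0.25, edgeR quasi-likelihood adjusted p = 0.000413). It had 2 counts in pent1. NbL07g01750 stood at 0.714, 0.646 and 0.427 CPM in WT mock and 1.43, 1.39 and 1.48 CPM in WT ABA, again without overlap and with little spread among the ABA libraries. Its log2 fold change was 1.27 (SE 0.29, edgeR quasi-likelihood adjusted p = 0.0018), the highest of all members tested.

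NbL04g06960, the most abundant member, rose by 0.84 on the log2 scale (SE 0.17, edgeR quasi-likelihood adjusted p = 0.000557), the smallest change among the 9. NbL01g19830 had 16, 17 and 20 counts in WT mock against 28, 40 and 31 in WT ABA, and rose by 0.91 (SE 0.25, edgeR quasi-likelihood adjusted p = 0.00713). Of the 9 genes it was the only one whose highest WT library was not ABA replicate 3. These 4 genes kept their calls without any 1 of the 6 WT libraries and under each other setting tried. Without WT ABA replicate 3 their log2 fold changes were 1.2, 1.24, 0.67 and 0.94 in the order named.

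The other 5 calls were lost without single libraries, in part with a fold change of the same size. NbL17g07560 had 13, 6 and 10 counts in WT mock against 12, 23 and 34 in WT ABA, with overlap, and a log2 fold change of 1.26 (edgeR quasi-likelihood adjusted p = 0.0183). Without WT mock replicates 2 and 3 its log2 fold change was 1.02 and 1.27 (adjusted p = 0.0769 and 0.0554), and without WT ABA replicate 3 it was 0.85 (adjusted p = 0.121). NbL00g00130 had 11, 13 and 5 counts and then 15, 24 and 29, a log2 fold change of 1.24 (edgeR quasi-likelihood adjusted p = 0.0111), and then 0.92 without WT mock replicate 3 (adjusted p = 0.0745) and 1.01 without WT ABA replicate 3 (adjusted p = 0.0599). NbL13g02800 had 14, 14 and 5 counts and then 26, 18 and 28, a log2 fold change of 1.14 (edgeR quasi-likelihood adjusted p = 0.0147). It was 0.78 without WT mock replicate 3 (adjusted p = 0.0955), and 1.08 and 1.00 without WT ABA replicates 1 and 3 (adjusted p = 0.0537 and 0.0551). With DESeq2 it was 1.16 (adjusted p = 0.0563).

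NbL14g00870 and NbL17g00690 had log2 fold changes of 1.09 and 0.91 (edgeR quasi-likelihood adjusted p = 0.0218 and 0.0308). For NbL14g00870 it was 0.86 without WT mock replicate 3 (adjusted p = 0.109), 0.70 without WT ABA replicate 3 (adjusted p = 0.16) and 1.11 with DESeq2 (adjusted p = 0.0644). For NbL17g00690 it was 0.80 and 0.84 without WT mock replicates 1 and 3 (adjusted p = 0.0941 and 0.0982), and 0.91 and 0.70 without WT ABA replicates 2 and 3 (adjusted p = 0.0681 and 0.144). With DESeq2 it was 0.93 (adjusted p = 0.132), and with all 12 libraries in the fit 0.91 (adjusted p = 0.0647). An ABA response of the members in pent1 could not be measured, since 180 counts under ABA and 106 under mock were spread over 117 genes.

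**Figure D4:**
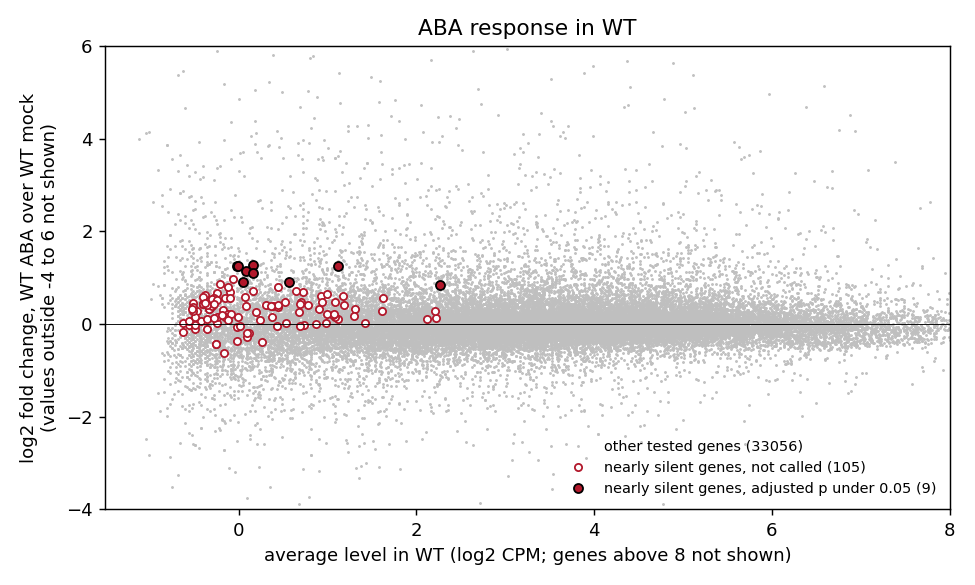
Each point is a gene tested for ABA against mock in WT, with its average level (log2 CPM) on the x axis and its log2 fold change on the y axis. The 9 members that rose (filled) have values of 0.84 to 1.27, the 105 others are open, and most of the 114 lie slightly above 0 at the low end of the level axis.

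The place of the genes was read from their IDs, which carry a prefix and a number in steps of 10. The tables do not say that prefixes are chromosomes or that numbers follow the genome, and no coordinates were used. Members occurred under all 20 prefixes, the 19 numbered from 1 and the prefix NbL00. Under the numbered prefixes the share of genes at the WT minimum that were members ran from 0.112% for NbL15 (2 of 1780) to 0.778% for NbL09 (13 of 1672), around 0.361% in all. NbL16 followed with 11 of 1936 (0.568%), and NbL12 and NbL14 were low, with 2 of 1629 and 2 of 1557. NbL00, with 103 genes at the WT minimum, held 2 members, NbL00g00120 and NbL00g00130, which have consecutive IDs.

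**Figure D5:**
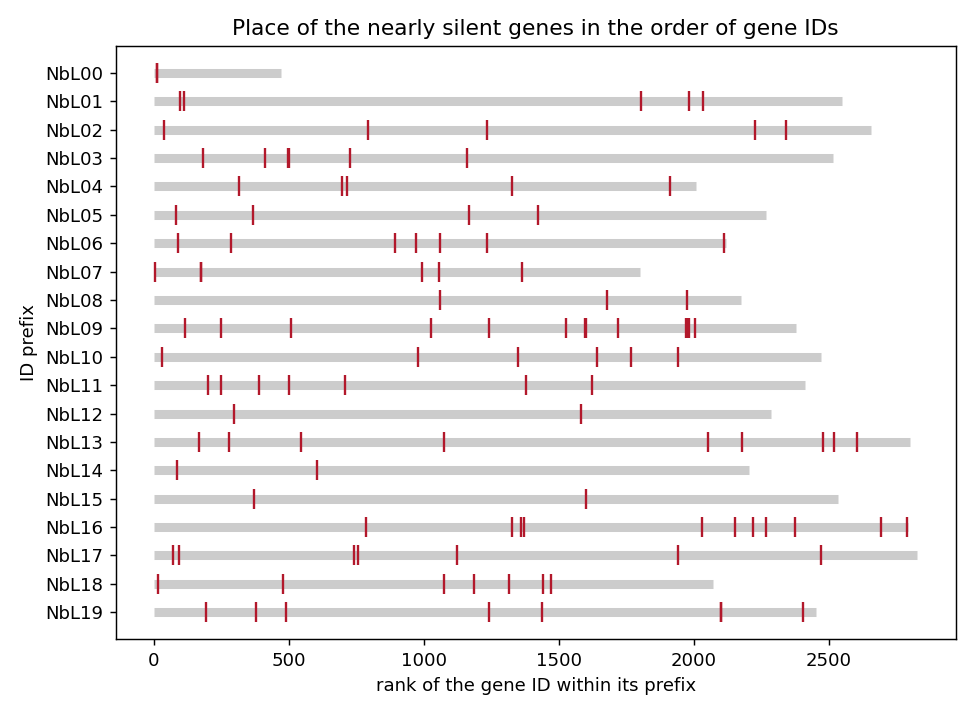
Red ticks mark the 117 nearly silent genes by the rank of their ID within its prefix, and grey bars span all IDs of each of the 20 prefixes. Ticks are spread along most bars, with 12 of the 117 within 5 steps of another.

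Most members stood alone: 12 of the 117 (10.3%) had another member within 5 steps in ID order, and 6 had one as the next ID. Among other genes at the WT minimum, 2.37% had a member within 5 steps. The 12 formed 6 pairs and no longer run. Of the genes between the members of a pair, those expressed in WT were expressed in pent1 as well, and NbL09g16000 had no count in either genotype. NbL03g04970 lies between NbL03g04960 and NbL03g04990 and stood at 16.7 ± 0.588 CPM in WT mock and 13.1 ± 1.70 CPM in pent1 mock (SD, n = 3). Its log2 difference under mock was -0.40 (SE 0.12, edgeR quasi-likelihood adjusted p = 0.0202), a call lost with column totals alone (0.0577), and without WT mock replicates 1 and 2 (0.051 and 0.0567) or pent1 mock replicate 2 (0.0665). The members beside it had 2 pent1 counts each. NbL09g15990, between the members NbL09g15980 and NbL09g16010 and named after its values were seen, was higher in pent1 under mock, by 1.57 on the log2 scale (edgeR quasi-likelihood adjusted p = 2.79e-06). Under ABA its difference was -0.26 (adjusted p = 0.117).

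The pair NbL19g20990 and NbL19g21000, with 229 and 131 counts in WT and 2 and 1 in pent1, lay beside NbL19g20980. That neighbour stood at 282.7 CPM over the 6 WT libraries and 279.7 CPM over the 6 pent1 libraries. A different picture was seen at NbL07g01740 and NbL07g01750, which had 72 and 112 counts in WT and 1 and 2 in pent1. The IDs that follow, NbL07g01760 and NbL07g01770, had 64 and 74 counts in WT and 3 and 2 in pent1, and missed membership by a WT mock mean under the minimum (both, and the genes before the pairs, are named after their values were seen). In pent1 mock each had 1, 0 and 0 counts, and in pent1 ABA they had 0, 1 and 1 and 0, 0 and 1. Fitted log2 differences of pent1 from WT were -4.63 and -5.17 under ABA and -2.71 and -4.42 under mock. They rest on these few counts, and both genes were named for low pent1 counts, so no test is given. With the pair before them they made 4 consecutive IDs with next to no pent1 counts. The ID before these 4, NbL07g01730, stood at 42.6 CPM in WT and 39.3 CPM in pent1. In WT the counts of NbL07g01760 were 4, 2 and 2 under mock and 15, 22 and 19 under ABA, and those of NbL07g01770 were 15, 10 and 2 and then 20, 7 and 20.

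Other stretches of this kind were then looked for. In a wider set of 368 genes, picked after the values were seen for at least 20 counts in WT, at most 6 in pent1 and a ratio of at least 16 between the counts, 16 genes lay in 7 chains of consecutive IDs, of which 6 were pairs and the one above was the longest. How many chains such a set would give without regard to ID order was not tested. Members stood in 5 of these chains. In one of them NbL17g00690, a member with 103 counts in WT and 3 in pent1, followed NbL17g00680, with 0, 1 and 1 counts under WT mock, 13, 12 and 15 under WT ABA and 1 in pent1. NbL13g01690, the ID after the member NbL13g01680, had 52 counts in WT and none in pent1.

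The comparison of pent1 with WT in the genes next to the members asked whether the deficit extended to them. Within 5 steps of a member lay 1108 other genes, of which 809 could be tested. Genes that met the rule are left out of these, so the neighbours could show only a deficit that missed the rule. Under mock, 136 were lower in pent1 (16.8%) and 146 higher (18.0%), close to the background of 15.4% and 17.4% over all 34026 genes tested (edgeR quasi-likelihood adjusted p under 0.05). The balance turned with the scaling, to 105 lower and 158 higher with column totals alone and 151 lower and 132 higher with upper-quartile factors. Their median log2 difference was 0.02, and it was 0.02 over all tested genes that are no members. Under ABA, 126 were lower (15.6%) and 145 higher (17.9%), against 14.6% and 16.7%. Among the 228 other genes with an ID next to a member, 159 had a WT mean of at least 0.5 CPM, of which 152 had a pent1 mean within 2-fold and 2 a pent1 mean at least 16-fold lower.

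Genes at least 16-fold lower in pent1 were nonetheless present near members. Under mock they were 4 of the 809 (0.494%), where the share was 0.635% over all tested genes and 0.318% without the members. Under ABA they were 6 (0.742%), against 0.55% over all and 0.268% without the members, and 3 of the 6 were among the 164 tested genes with an ID next to a member (1.83%). These counts are small, and whether they exceed what other places hold was not tested. NbL06g08910, the ID before the member NbL06g08920, fell from 61, 95 and 64 counts in WT mock to 1, 3 and 1 in pent1 mock, and from 91, 63 and 162 in WT ABA to 0, 7 and 0 in pent1 ABA. Its log2 differences were -5.48 and -5.49 (edgeR quasi-likelihood adjusted p = 0.000151 and 8.75e-05). All 7 of its pent1 ABA counts were in replicate 2, and without that library the difference under ABA was -9.79, a fitted value against 0 counts. Without pent1 mock replicate 2 the difference under mock was -6.18. Like most members, it was highest in WT ABA replicate 3.

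NbL05g00780, a pair of steps before the member NbL05g00800, had 76, 69 and 71 counts in WT mock against 163, 123 and 148 in WT ABA. In pent1 it had 3, 2 and 0 under mock and 0, 1 and 14 under ABA. Its log2 difference under mock was -5.45 (edgeR quasi-likelihood adjusted p = 1.96e-05), and -6.08 without pent1 mock replicate 1. In WT it rose with ABA by 1.03 (SE 0.14, edgeR quasi-likelihood adjusted p = 7.42e-06). NbL01g18010, 5 steps from the member NbL01g18060, fell from 78, 56 and 52 counts in WT mock to 2, 3 and 0 in pent1 mock, a log2 difference of -5.23 (edgeR quasi-likelihood adjusted p = 5.97e-08), and -5.94 without pent1 mock replicate 2. It was even across the WT libraries, with 53, 66 and 71 counts under ABA.

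Other neighbours were higher in pent1. NbL18g00120, 4 steps from the member NbL18g00160, had no count in WT mock and 3, 10 and 12 counts in pent1 mock, at least 7.9-fold higher with WT mock set to a floor of 3 counts over its libraries (edgeR quasi-likelihood adjusted p = 0.0016). NbL13g10710, 5 steps from the member NbL13g10760, stood at 4.5 ± 1.08 CPM in WT mock and 17.8 ± 6.42 CPM in pent1 mock (SD, n = 3), a log2 difference of 1.95 (edgeR quasi-likelihood adjusted p = 0.00415). NbL07g09990, 5 steps from the member NbL07g09940, stood at 2.20 ± 0.679 and 8.38 ± 2.12 CPM, a log2 difference of 1.88 (edgeR quasi-likelihood adjusted p = 6.52e-06). Under ABA NbL07g09990 stood at 1.67 ± 0.064 CPM in WT and 2.40 ± 0.612 CPM in pent1, a log2 difference of 0.55 (adjusted p = 0.136). Under mock, neighbours of the nearly silent genes were thus called in both directions.

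The ABA response of the neighbours was measured in pent1, where the members gave too few counts. Of 788 tested, 44 rose (5.58%) and 41 fell (5.2%), against a background of 7.24% and 3.85% over 33197 genes (edgeR quasi-likelihood adjusted p under 0.05). With column totals alone as the scaling, 36 rose and 57 fell, and with upper-quartile factors 40 rose and 45 fell. The number that fell was 24 to 27 without replicate 1 or 3 of pent1 mock, or without replicate 1 or 2 of pent1 ABA, and 71 without pent1 ABA replicate 3. In WT, 150 of 797 tested neighbours rose with ABA (18.8%) and 175 fell (22.0%), against 18.6% and 17.5% over 33170 genes. Of the 162 with an ID next to a member, 26 rose (16.0%) and 43 fell (26.5%). These WT counts were not followed through the alternatives, and whether they differ from other places in ID order was not tested.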

How the data were processed

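RNA-seq libraries were made from total RNA of whole seedlings with a strand-specific mRNA kit, per the labels' protocols. The authors deposited raw read counts per gene in 2 tables, one per genotype, each with 6 libraries. FastQC, cutadapt, STAR and DESeq2 are named, without versions, in the submitters' processing notes, and the read counter, its strand setting, the genome build and the annotation are not stated in the labels or headers used. Reads of near-identical gene copies could have been split or dropped by the counting.

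The tables were joined by gene ID, and CPM values are counts divided by the column total, times 1000000. Libraries held 18199288 to 19678708 counts. Tests used edgeR 4.0.16 in R 4.3.3 (quasi-likelihood F-test, robust, TMM factors, filterByExpr with a count minimum of 10) on all genes of the joined table. Adjusted p-values are Benjamini-Hochberg over all genes tested, with a threshold of 0.05. The ABA response was fitted within each genotype (6 libraries), and pent1 against WT on all 12 libraries with 4 group means. Standard errors are the log2 fold change over the square root of F. Replicates are described as independent, and p-values measure the spread between these libraries.

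The nearly silent genes, and the lists here, were chosen with earlier results of these data known. Neighbours are genes 1 to 5 steps away in ID order under the same prefix. Genes named are the 8 with the highest and the 3 with the lowest WT means, those called for ABA in WT, members and tested genes in pairs close in ID order, the 3 nearest outside the rule, the 3 lowest and 3 highest neighbours called under mock, and the reverse set. Others are marked in the text as named after their values were seen. On simulated counts with 50 genes changed per fold size, the WT fit recovered 76% of 1.5-fold and 92% of 2-fold changes. It called 7 unchanged genes of 33157 tested. For ABA against mock in pent1, 32% and 94% were recovered, and 16 unchanged genes of 33198 tested were called. For pent1 against WT under mock, 34% and 94% were recovered, and 5 of 33753 were called. The fits used for the neighbours thus missed most 1.5-fold changes. The changed genes were drawn from those above 1 CPM, and 1 fixed dispersion was used for all genes of a fit. The recovered shares therefore do not cover the 67 members with a WT mean under 1 CPM. Alternatives were RLE, upper-quartile and no scaling factors, DESeq2 1.42.0, no filter, a replicate block, each library left out, and other limits and windows. Floors cover counting error only. Sequences and gene names were not used here.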

Additional observations from a re-analysis of the deposited data

How the results depend on the processing

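Log2 fold changes were followed through the alternatives for the 9 members called for ABA in WT. They were also followed for NbL03g04970 and the 3 lowest and 3 highest neighbours named. None of these, and no median over the members, changed sign, but the balance of neighbours called higher and lower did. Other named genes were not followed. Of these, NbL18g13140 had a WT log2 fold change of 0.27, but a ratio of ABA replicates 1 and 2 to mock of 0.87. Under mock, 136 lower and 146 higher became 149 and 138 with no filter, and in pent1 44 that rose and 41 that fell became 48 and 49 with the block. The number of nearly silent genes was 270 with a WT minimum of 0.25 CPM, which included the 117, and 41 with 1 CPM, all among the 117. With at most 3 or 12 pent1 counts it was 81 or 163, and with 1 library left out 108 to 141. The reverse set held 17 and 1 genes at these WT-type minimums, and 2 and 9 with at most 3 and 12 counts. Members close to another were 6 with the next ID only and 15 within 10 steps.

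The number of members that rose with ABA in WT was 4 to 17 with 1 library left out, 8 to 12 under the scalings, filter and fit with all 12 libraries, and 6 with DESeq2. None fell in any of these. The share of all tested genes called at each of these settings is not given here. Windows of 2 and 10 steps hold fewer and more genes by construction. Neighbours lower in pent1 were then 61 and 275 under mock and 55 and 261 under ABA, and those higher 51 and 265, and 44 and 267. In pent1, 16 and 92 neighbours rose with ABA and 15 and 72 fell. With 1 library left out, 31 to 66 rose and 24 to 71 fell, and the cause was not tested.

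Same-numbered mock and ABA libraries did not deviate together (correlations of 0.053, -0.0424 and 0.0344 in WT and -0.0618, -0.0237 and 0.103 in pent1), so the replicate numbers were not taken as pairs. Between same-numbered WT and pent1 libraries the correlations were -0.0189, 0.0209 and -0.000562 under mock and 0.00544, 0.112 and 0.2 under ABA. Different-numbered pent1 libraries reached 0.178. With the number as a replicate block, 10 members rose and 0 fell in WT. Neighbours lower and higher in pent1 were 138 and 154 under mock and 132 and 152 under ABA, and 48 rose and 49 fell with ABA in pent1. Few counts per member limit the ABA test, and genotype cannot be told apart from the count table.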
